A study of Mus musculus with 4 samples.

Results

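The class II antigen presentation genes are 9 genes listed by symbol and looked up in a deposited expression table of 25965 genes, where all 9 had a row. They were H2-Aa, H2-Ab1, H2-Eb1, H2-DMa, H2-DMb1, H2-DMb2, Cd74, Ciita and Ctss. The table holds 4 libraries of round spermatids, the haploid germ cells that follow meiosis, sorted by flow cytometry from testes of mice of the outbred ICR background. There were 2 libraries of genotype Wfdc15a-/- (knockout) and 2 of genotype Wfdc15a+/-, which served as the controls, so every mouse carried at least 1 altered Wfdc15a allele. No age, promoter-driven transgene or Cre is named in the sources used here, and the wild-type controls that the design text mentions were not analysed here. The set was chosen by earlier values of this same comparison, in which H2-Aa, Cd74 and Ctss had been seen to be higher in the -/- libraries, so the differences of the 9 genes between genotypes are given below as a description, with no test.

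Class II molecules are pairs of an alpha and a beta chain that show peptides from endosomes to CD4 T cells. In the mouse H2-Aa and H2-Ab1 encode the chains of one pair, and H2-Eb1 the beta chain of the other. The invariant chain, Cd74, fills the peptide groove of a new molecule and steers it to endosomes, where cathepsin S, the product of Ctss, trims the invariant chain and the H2-DM pair (H2-DMa with H2-DMb1 or H2-DMb2) exchanges its last fragment for a peptide. Ciita is the coactivator on which transcription of class II chains depends in antigen-presenting cells; it does not bind DNA itself but joins RFX, CREB and NF-Y on the X and Y boxes of their promoters. In the testis, class II protein is known from macrophages, above all those around the tubules.

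The promoters are shown because the X and Y boxes are what several of the genes share apart from their symbols. RefSeq promoter windows of GRCm38.p6, from 250 bases before to 50 bases after a start, were matched for 6 of the 9 genes, leaving out Cd74. Each stretch of 60 bases below runs 5′ to 3′ on the strand of the gene and lies before its RefSeq start, with the searched X box core (ACNGATG) and the Y box (CCAAT, here as its other strand, ATTGG) in capitals. H2-Aa is at chr17:34287857-34287916 on the minus strand, H2-Eb1 at chr17:34305763-34305822 and H2-DMb2 at chr17:34145114-34145173, both on the plus strand.
H2-Aa: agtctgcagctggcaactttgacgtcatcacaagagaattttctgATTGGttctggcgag
H2-Eb1: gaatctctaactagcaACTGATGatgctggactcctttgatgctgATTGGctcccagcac
H2-DMb2: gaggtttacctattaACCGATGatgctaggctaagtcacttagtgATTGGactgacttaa

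The X core and the Y box stood together, with 10 to 40 bases between them, in the windows of H2-Eb1, H2-DMb1 and H2-DMb2, where 22, 23 and 23 bases separated them. Such a pair was found in 74 of 32851 RefSeq promoter windows (0.225%), while CCAAT on either strand was in 37.4% and ACNGATG on either strand in 9.85%. The H2-Aa window held the Y box, 48 bases before its start, and no X core of these letters on the strand of the gene, with 1 match on the other strand. The Ctss window held an X core 206 bases before its start and no Y box, and the H2-DMa windows, at starts far upstream of the interval counted here, held no X core. These matches describe letters in a window, not binding.

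**Figure D1:**
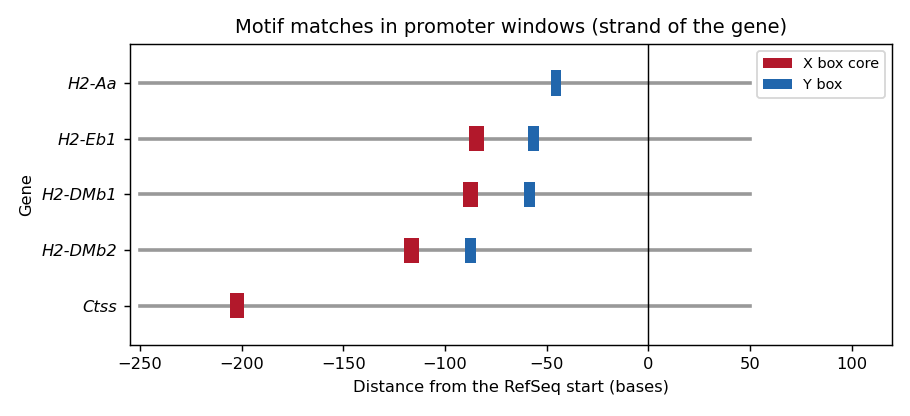
Position of the X box core (red) and the Y box (blue) on the strand of the gene in RefSeq promoter windows of 5 class II genes, in bases from the start (vertical line). In H2-Eb1, H2-DMb1 and H2-DMb2 the X core lies 22 or 23 bases before the Y box. On this strand H2-Aa has a match to the Y box alone, and Ctss a match to the X core alone. Only ACNGATG was searched as the X core, and other forms of the X box were not.

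Levels are in RPM, reads per 1000000 reads of the library, and the deposited values gave back whole reads, so reads can be stated. Library totals were 21160061 and 11268909 reads for -/- libraries 1 and 2, and 5774112 and 33853604 reads for +/- libraries 1 and 2. One read was therefore worth 0.0473 and 0.0887 RPM in -/-, and 0.173 and 0.0295 RPM in +/-. Nothing says that the libraries came from separate animals, so the spread between them may be technical. Wfdc15a itself was read in all libraries, at 82.6 and 59.5 RPM in -/- and 121 and 85.2 RPM in +/- (log2 difference -0.53, SE 0.29, limma adjusted p = 0.647), so the genotypes are given as labelled. The 10 round spermatid markers, among them the acrosomal genes Acrv1 and Acr, were read in every library. They summed to 3379 and 3046 RPM in -/- and 2435 and 3205 RPM in +/-, with Spaca1, Acrv1 and Izumo1 above both +/- libraries in both -/- libraries and none below. Among all genes at 1 RPM or more in 2 or more libraries, 23.5% lay above and 15% below.

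The summed class II level was 300.1 and 95.1 RPM in -/- libraries 1 and 2, and 36.7 and 38.5 RPM in +/- libraries 1 and 2. Both -/- libraries lay above both +/- libraries, and the ratio of the group means was 5.26 (198 ± 145 RPM in -/- and 37.6 ± 1.23 RPM in +/-, SD, n = 2 each). The ratio was 2.53 without -/- library 1 and 7.99 without -/- library 2. In bulk samples, more cells that carry a transcript and more of it per cell cannot be told apart. All 9 genes had reads in each -/- library, and 7 of 9 in each +/- library.

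Of the 9 genes, 7 lay above both +/- libraries in both -/- libraries, and H2-DMa and H2-DMb1 overlapped between the genotypes. Of the 15888 genes in the fit, which had 1 RPM or more in 2 or more libraries, 23.5% lay above in the same way and 15% below. The set was chosen with this comparison in view, so nothing is read from the difference between these shares. Of the 9 genes, 8 passed that filter, but 3 of them (H2-Aa, H2-DMb2 and Ctss) did so by their -/- libraries alone, and Ciita did not pass. Cd74, at 4.50 and 0 RPM in +/- libraries 1 and 2, would not have passed without its -/- libraries either. The median log2 difference of the 8 was 2.40, beside 0.07 over all genes in the fit.

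**Figure D2:**
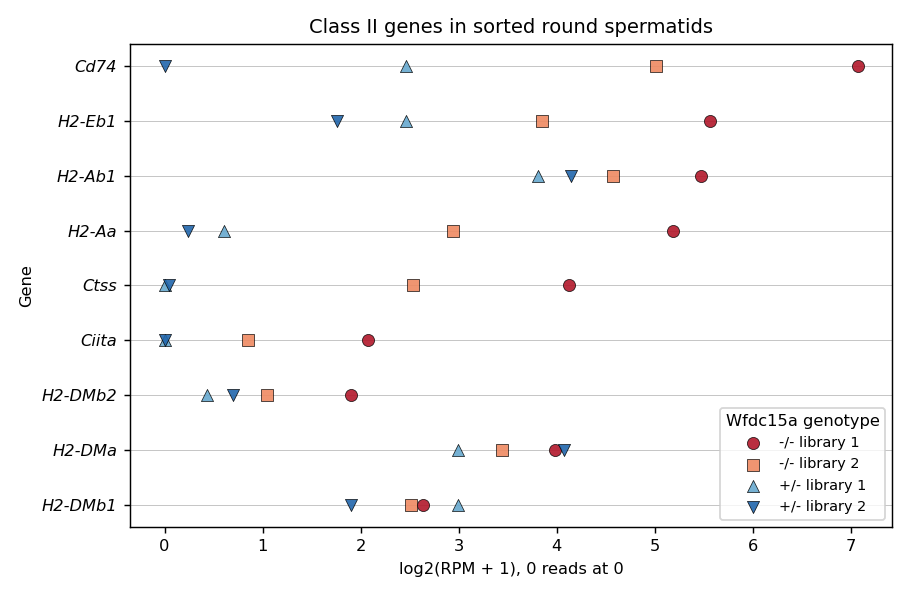
Level of each class II gene in each library, as log2(RPM + 1) with 0 reads at 0; red and orange points are the -/- libraries, light and dark blue the +/- libraries. Cd74, H2-Aa, Ctss and Ciita are at or near 0 in at least 1 +/- library, H2-Ab1 is well above 0 in all 4, and H2-DMa and H2-DMb1 overlap between genotypes.

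Of the chains that form the surface molecule, H2-Aa and H2-Ab1, partners in one heterodimer, did not move alike. H2-Aa had 747 and 75 reads in -/- libraries 1 and 2 (35.3 and 6.66 RPM), and 3 and 6 reads in +/- libraries 1 and 2 (0.520 and 0.177 RPM). Its group means differed 60.2-fold (log2 difference 5.66, SE 0.92), and the lower -/- library was 12.8-fold above the higher +/- library. H2-Ab1 was at 43.3 and 22.7 RPM in -/- and 13.0 and 16.7 RPM in +/-, a 2.23-fold difference of means (log2 difference 1.09, SE 0.39). The groups did not overlap, but the lower -/- library was only 1.36-fold above the higher +/- library, and H2-Ab1 held 75 and 565 reads in +/- libraries 1 and 2. Within a library, H2-Aa over H2-Ab1 per exon length was 0.519 and 0.187 in -/- libraries 1 and 2, and 0.0255 and 0.00676 in +/- libraries 1 and 2. The 95% exact intervals of this ratio, which cover counting error only, were 0.470 to 0.572 and 0.142 to 0.242 in -/- and 0.00514 to 0.0773 and 0.00247 to 0.0148 in +/-. Those of the -/- libraries did not overlap each other, so libraries of 1 genotype differed by more than counting error. Nothing about genotype is therefore read from these intervals. These intervals take each read as independent, and would be wider if both mates of a fragment were counted.

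H2-Eb1, the beta chain of the other heterodimer, stood between them. No row was matched for H2-Ea, the gene of its alpha chain, so that pair is seen by its beta chain only. H2-Eb1 was at 46.0 and 13.4 RPM in -/- and 4.50 and 2.39 RPM in +/-, an 8.62-fold difference of means (log2 difference 2.92, SE 0.59). Its groups did not overlap, and it had 26 and 81 reads in +/- libraries 1 and 2. The related beta chain gene H2-Eb2 had 8 and 4 reads in -/- and 0 and 4 reads in +/-, too few to compare. No stretch of 50 bases of the H2-Eb1 transcripts in GENCODE M21 occurred in those of H2-Eb2. The reference genome is of C57BL/6J, class II chains differ greatly between haplotypes, and the loss of reads from other haplotypes in these ICR mice was not tested.

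Cd74, the invariant chain, had the highest level per kilobase of exon among the 9 genes in both -/- libraries. It was at 133 and 31.1 RPM in -/- libraries 1 and 2 (2816 and 351 reads), and at 4.50 and 0 RPM in +/- libraries 1 and 2 (26 and 0 reads). The +/- libraries differed from each other: at the level of -/- library 2, 1054 reads would be expected in the deeper +/- library, which had none. The group means differed 36.5-fold, and the lower -/- library was 6.92-fold above the higher +/- library. The fitted log2 difference of 7.54 (SE 1.73) depends on the value given to 0 reads; it was 4.81 on the log2(RPM + 1) scale and 3.84 without +/- library 2, the one with 0 reads.

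Ctss, which encodes the protease that trims the invariant chain, had 347 and 54 reads in -/- (16.4 and 4.79 RPM), and 0 and 1 read in +/-. The pooled rate in -/- was 490-fold that in +/-, a value that rests on that 1 read and is given as a description. At the level of -/- library 2, 27.7 and 162 reads would be expected in +/- libraries 1 and 2.

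Ciita had 68 and 9 reads in -/- libraries 1 and 2 (3.21 and 0.799 RPM), and 0 reads in both +/- libraries. If 3 reads are assumed for the +/- libraries together, the -/- mean comes to 26.5 times theirs, with each read taken as 1 fragment. That value depends on the assumed 3 reads and is not a lower limit. In +/- library 1 the level of -/- library 2 would give only 4.61 reads, while 0 reads allow up to 3.69 at the 95% level, so the shallow library hardly tells these levels apart. In +/- library 2 it would give 27.0 reads. Reads summed over the gene do not show which of the Ciita promoters was in use, and 3 of its 8 GENCODE M21 transcripts begin more than 500 bases upstream of the interval in the table.

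Of the H2-DM genes, which encode the peptide exchange factor, H2-DMa and H2-DMb1 overlapped between genotypes and H2-DMb2 did not. H2-DMa, the alpha chain, was at 14.8 and 9.85 RPM in -/- and 6.93 and 15.8 RPM in +/- (log2 difference 0.21, SE 0.47). H2-DMb1, a beta chain, was at 5.20 and 4.70 RPM in -/- and 6.93 and 2.75 RPM in +/- (log2 difference 0.18, SE 0.58). In both, the +/- libraries lay on either side of the -/- libraries, and the sign of the log2 difference was not stable. For H2-DMa it was -0.39 without +/- library 1, and for H2-DMb1 -0.49 without +/- library 2 and -0.08 with quantile scaling. H2-DMb2, the other beta chain, was at 2.74 and 1.06 RPM in -/- and 0.346 and 0.620 RPM in +/-, a 3.94-fold difference of means (log2 difference 1.88, SE 1.13). Its -/- libraries held 58 and 12 reads, and its +/- libraries 2 and 21 reads. H2-DMb1 and H2-DMb2 are neighbouring copies, and 27.2% of the 50-base stretches of H2-DMb1 transcripts also occur in H2-DMb2, so their reads may have been split between them. For H2-DMa, 5 of 8 GENCODE M21 transcripts begin more than 500 bases upstream of the interval in the table, and the sources do not say whether their exons were counted.

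Per kilobase of exon, the mean level in -/- fell in the order Cd74 (49.1 RPM per kb), H2-Eb1 (20.5), H2-Ab1 (13.7), Ctss (7.80), H2-Aa (5.52), H2-DMa (4.66), H2-DMb1 (2.96), H2-DMb2 (1.09) and Ciita (0.241). The exon length was the union over all annotated transcripts of a gene, 3798 bases for H2-Aa, 2418 for H2-Ab1 and 1673 for Cd74. A gene whose transcripts in these cells are shorter than this union would rank higher. The orders, the shares per kb and the values of ratios between genes therefore depend on this choice. Comparisons of one such ratio between libraries do not. From Cd74 down to H2-DMa the ranges of neighbours in this order overlapped over the -/- libraries, and from H2-DMa down they did not. In +/- the order was H2-Ab1 (6.14 RPM per kb), H2-DMa (4.29), H2-DMb1 (2.89), H2-Eb1 (2.37), Cd74 (1.35), H2-DMb2 (0.277), H2-Aa (0.0917), Ctss (0.0109) and Ciita at 0 reads. From H2-Ab1 down to H2-DMb2 neighbours overlapped over the +/- libraries, and H2-DMb2 lay above H2-Aa, and H2-Aa above Ctss, in both. Cd74 made up 49.4% and 37.4% of the class II level per kb in -/- libraries 1 and 2, and 14.7% and 0% in +/- libraries 1 and 2. H2-Ab1, H2-DMa and H2-DMb1 together took 21.1% and 39.2% of the summed RPM in -/-, and 73.1% and 91.6% in +/-. Their sum was 63.4 and 37.3 RPM in -/- and 26.8 and 35.2 RPM in +/-, against 237 and 57.9 RPM in -/- and 9.87 and 3.22 RPM in +/- for the other 6 genes.

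**Figure D3:**
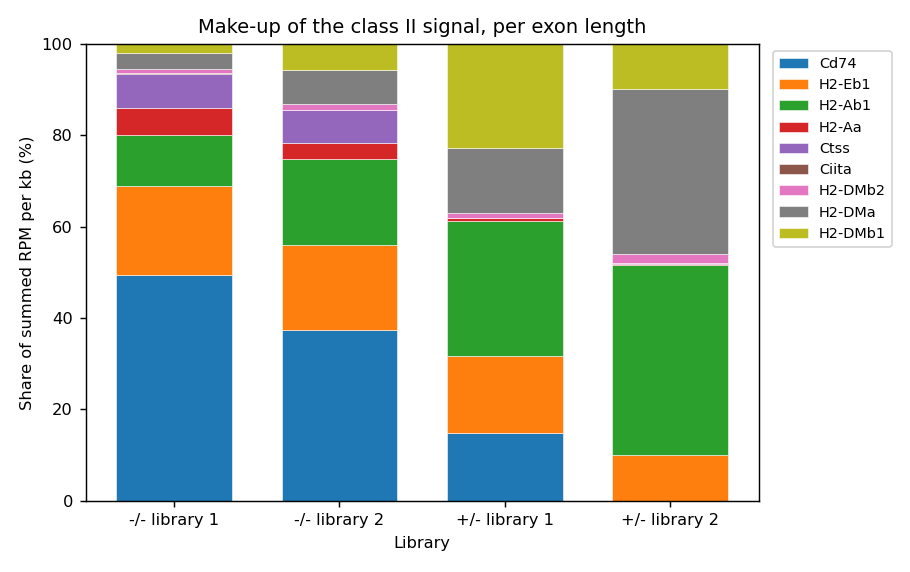
Share of each class II gene in the summed RPM per kilobase of exon, by library. Cd74 (blue, bottom) is the widest band in both -/- libraries, and H2-Ab1 (green), H2-DMa (grey) and H2-DMb1 (olive) take most of both +/- libraries.

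The -/- libraries also differed from each other. The level in -/- library 1 was 5.30 times that in -/- library 2 for H2-Aa, 4.27 times for Cd74, 4.02 times for Ciita, 3.44 times for H2-Eb1 and 3.42 times for Ctss. It was 1.91 times for H2-Ab1, 1.51 times for H2-DMa and 1.11 times for H2-DMb1, whose 95% exact interval of 0.789 to 1.56 includes 1. Over 15239 genes with 10 or more reads in both -/- libraries the median of this ratio was 1.03. Within these libraries Cd74 kept a similar proportion to H2-Aa per exon length, at 8.56 (interval 7.89 to 9.29) and 10.6 (8.26 to 13.8) in -/- libraries 1 and 2. Ciita over H2-Aa was 0.0416 and 0.0548, with overlapping intervals. Proportions to H2-Ab1 were not kept. Cd74 over H2-Ab1 was 4.44 (4.12 to 4.79) and 1.98 (1.68 to 2.34) in -/- libraries 1 and 2. H2-Eb1 over H2-Ab1 was 1.77 and 0.982, also without overlap of the intervals. These comparisons are between single libraries of the same genotype and have no replicate.

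**Figure D4:**
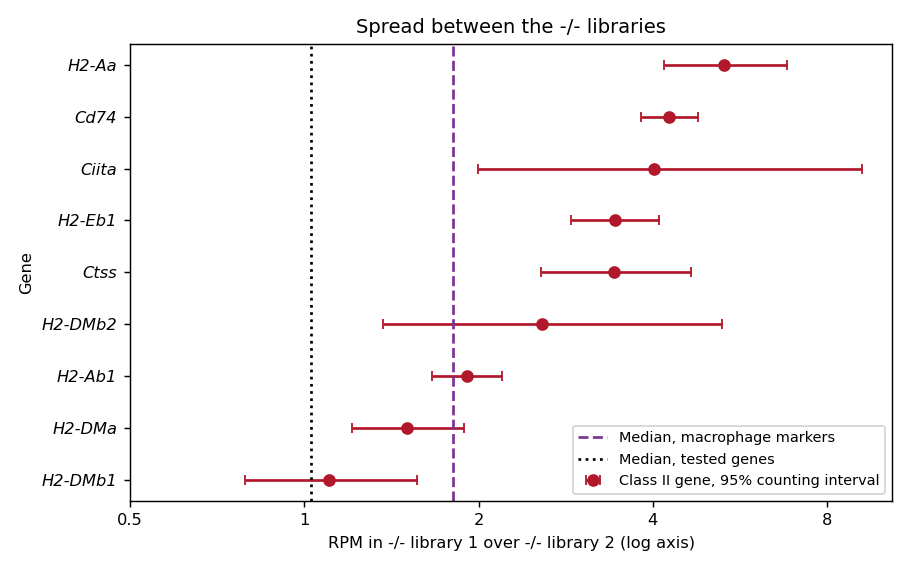
Ratio of RPM in -/- library 1 to -/- library 2 for each class II gene on a log axis, with 95% exact counting intervals; dashed and dotted lines are the medians of macrophage markers (1.81) and of tested genes (1.03). H2-Aa, Cd74, Ciita, H2-Eb1 and Ctss lie between 3.42 and 5.30, and H2-DMb1 is close to 1.

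Markers of cells that carry class II protein were read in the same libraries. Of 20 macrophage markers, 18 were tested and 15 of these lay above both +/- libraries in both -/- libraries, as did 23.5% of all genes in the fit, and the median log2 difference of the 18 was 3.82. None passed the adjusted p of 0.05 by limma or with voom weights. At an unadjusted p under 0.05, 13 were higher by limma and 16 differed by voom, beside 8.08% and 12.3% of all genes in either direction. Several of the 18, among them Cd68, Tyrobp and Cybb, reached 1 RPM in their -/- libraries alone. The filter thus favoured markers that were high there, and nothing is read from the difference between these counts and shares. The 20 markers summed to 206 and 96.0 RPM in -/- libraries 1 and 2, and 43.8 and 30.7 RPM in +/- libraries 1 and 2. Lyz2, the macrophage lysozyme gene, was at 37.6 and 8.08 RPM in -/- and 1.04 and 0.443 RPM in +/- (log2 difference 4.68, limma adjusted p = 0.231). Csf1r, the receptor on which macrophages depend, was at 24.2 and 13.1 RPM in -/- and 3.98 and 4.08 RPM in +/- (log2 difference 2.15, limma adjusted p = 0.295). Mrc1, the mannose receptor, was at 16.5 and 9.14 RPM in -/- and 0.520 and 1.60 RPM in +/- (limma adjusted p = 0.273), and Cybb, which encodes part of the superoxide-producing oxidase of phagocytes, at 11.2 and 5.24 RPM in -/- and 0 and 0.118 RPM in +/- (limma adjusted p = 0.266). Tyrobp, which encodes the signalling adaptor DAP12, had 197 and 33 reads in -/- and 0 in +/-, while Adgre1, which encodes F4/80, overlapped at 21.6 and 8.43 RPM in -/- and 13.0 and 12.5 RPM in +/-. The part of these cells in the class II levels was not tested. In -/- library 1 over -/- library 2 the median of 18 macrophage markers was 1.81, with a range of 0.384 to 4.65. The 8 class II genes with 10 or more reads in both ranged from 1.11 to 5.30.

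The sums of dendritic cell and lymphocyte markers differed less between genotypes. The counts of each list below stand beside 23.5% above and 15% below among all genes in the fit. With so few genes tested in each list, nothing is read from these counts. Some of the genes, among them Insl3 and Trf, also reached 1 RPM in their -/- libraries alone. Of 10 dendritic cell markers 4 were tested and all overlapped between genotypes, with sums of 22.1 and 9.23 RPM in -/- and 11.4 and 12.8 RPM in +/-. Xcr1, Clec9a and Siglech had no read in +/- and at most 7 reads in a -/- library. The 10 B cell markers summed to 142 and 147 RPM in -/- and 138 and 128 RPM in +/-, most of it Pax5, and of 7 tested 1 lay above (Ms4a1) and 1 below (Fcrla). Cd79a, a part of the B cell receptor, had 0 reads in all 4 libraries. T cell markers summed to 15.3 and 12.5 RPM in -/- and 15.6 and 23.2 RPM in +/-, and of 3 tested 1 lay above (Cd2) and 1 below (Cd3d). Leydig cell markers summed to 37.5 and 18.4 RPM in -/- and 9.35 and 4.90 RPM in +/-, with Insl3, a Leydig cell hormone gene, at 20.0 and 7.54 RPM in -/- and 0.693 and 0.650 RPM in +/- (limma adjusted p = 0.222). Cyp17a1 and Star, which act in steroid synthesis, also lay above, and Nr5a1 below, while Hsd3b1 overlapped, among 5 tested. Sertoli cell markers summed to 58.1 and 52.8 RPM in -/- and 15.1 and 38.6 RPM in +/-. Of 5 tested, Trf, Clu and Wt1 lay above and 2 overlapped, and Amh had 0 reads in all 4 libraries. Endothelial and stromal markers summed to 114 and 104 RPM in -/- and 124 and 29.6 RPM in +/-. Of 8 tested, Myh11 and Pecam1 lay above, Vwf lay below and 5 overlapped. None of the genes of these lists passed limma's adjusted p of 0.05. The part of these cells was not tested either.

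**Figure D5:**
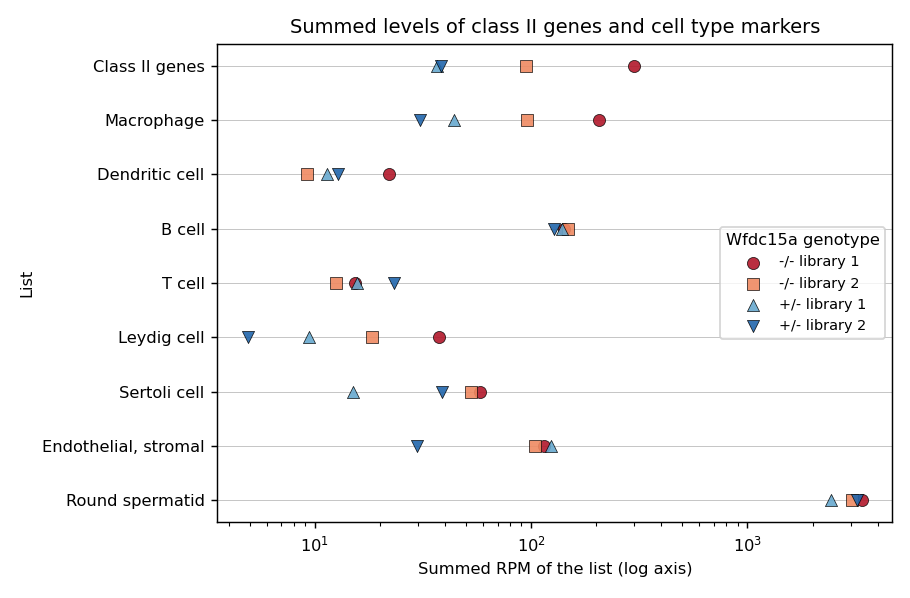
Summed RPM of the class II genes and of marker lists by library, on a log axis. The -/- libraries (red, orange) lie above both +/- libraries (blue) for the class II, macrophage, B cell, Leydig cell and Sertoli cell lists and below them for the T cell list, and the genotypes overlap for the dendritic cell, endothelial and stromal, and round spermatid lists.

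The other genes of the pathway were taken from 6 lists of 43 symbols, of which 40 matched a row and 28 were tested. None passed limma's adjusted p of 0.05, nor did any of the 15888 genes (0%), and none passed with voom weights either. At an unadjusted p under 0.05 there were 11 of 28 higher and 0 lower by limma, and 14 in either direction by voom. Over all 15888 genes, 8.08% were under 0.05 unadjusted by limma and 12.3% by voom, in either direction. Both -/- libraries lay above both +/- libraries for 15 and below for 3, beside 23.5% and 15% of all genes, and the median log2 difference was 0.82 beside 0.07 over all genes. The same shares stand beside the counts of the single lists below. Some of the 28, among them Ctsc, Cd86 and Rfxap, reached 1 RPM in their -/- libraries alone. These counts were therefore partly set by the filter, and nothing is read from their difference from the shares. With 1 library left out, 8 passed without +/- library 1, 5 without +/- library 2 and 0 without either -/- library, in fits that take the spread of the lone library from the other genotype.

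Among endosomal processing genes, 8 of 9 tested lay above both +/- libraries and 0 below, and nothing is read from this count. Ctsc, the dipeptidyl peptidase cathepsin C, was at 10.3 and 4.79 RPM in -/- and 0.346 and 0.561 RPM in +/- (log2 difference 3.99, SE 0.81, limma adjusted p = 0.295). Ctsb, cathepsin B, was at 24.1 and 7.45 RPM in -/- and 1.73 and 1.95 RPM in +/- (limma adjusted p = 0.2997). Lgmn, a lysosomal endopeptidase that cuts after asparagine, was at 12.7 and 10.7 RPM in -/- and 5.54 and 0.443 RPM in +/-. Sppl2a, a membrane protease that cuts the membrane-bound remnant of the invariant chain, was read in every library. It was at 49.7 and 54.3 RPM in -/- and 15.6 and 33.3 RPM in +/-. The limma adjusted p of Lgmn was 0.544 and that of Sppl2a 0.532.

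The factors that bind class II promoters were read in all libraries except Rfxap in +/- library 1. Of 7 tested, 2 lay above and 2 below, with a median log2 difference of -0.05. Rfx5, a DNA-binding subunit of RFX, was at 4.63 and 4.17 RPM in -/- and 9.87 and 6.68 RPM in +/- (log2 difference -0.89, SE 0.47, limma adjusted p = 0.642). Rfxap, another RFX subunit, was at 2.65 and 2.48 RPM in -/- and 0 and 0.650 RPM in +/- (limma adjusted p = 0.585), and Nfya, a subunit of NF-Y, at 28.2 and 30.1 RPM in -/- and 33.4 and 30.3 RPM in +/-. Creb1, which encodes CREB, was at 5.39 and 9.50 RPM in -/- and 4.16 and 4.19 RPM in +/- (limma adjusted p = 0.713).

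Of the genes that lead from interferon gamma to Ciita, Ifng itself had 0 reads in all 4 libraries. Irf1, a transcription factor of that response, was at 4.35 and 1.86 RPM in -/- and 1.21 and 0 RPM in +/- (limma adjusted p = 0.602). Jak1, a kinase of the interferon receptors, was at 16.6 and 14.3 RPM in -/- and 7.79 and 8.09 RPM in +/- (limma adjusted p = 0.591). Of 7 tested, 3 lay above and 0 below. Among costimulatory genes Cd86, a ligand of CD28, had 133 and 91 reads in -/- and 2 and 0 reads in +/- (limma adjusted p = 0.327), while Cd80, the other such ligand, had 7 and 1 reads in -/- and none in +/-. H2-Oa, which with H2-Ob restrains H2-DM in B cells, had 0 reads throughout, and H2-Ob at most 4 reads in a library. Of 3 tested genes of surface turnover, Cd9 lay above and Cd82 below both +/- libraries, and Cd63 overlapped.

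By profile over the 4 libraries, as the root mean square distance between centred log2(RPM + 1) values, the genes nearest to the summed class II level were Ctsb (distance 0.114), Hmox1 (0.158), Mpeg1 (0.195), Ctsa (0.211), Il10ra (0.221), Slc23a2 (0.254), Apobec1 (0.258), C1qa (0.266), Plek (0.280) and Tyrobp (0.280). Among the class II genes in the fit, H2-Eb1 was the closest to their sum, at 0.352, and Cd74 the farthest, at 1.61, with 12493 of 12883 other genes nearer. The distance grows with the size of a difference as well as with its shape. Cd74 had a log2 difference of 4.81 on this scale, so its large distance does not mean an opposite profile. With 4 libraries many genes share a profile, and the distance is given as a description. Mpeg1, a macrophage pore-forming protein gene, was at 7.61 and 1.51 RPM in -/- and 0 and 0.443 RPM in +/-, and Hmox1, which encodes haem oxygenase 1, at 5.95 and 1.06 RPM in -/- and 0 and 0.118 RPM in +/-.

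The H2 genes, 6 in all, form a cluster on chromosome 17 of the mm10 build, with H2-DMa from 34135182 to 34139101, H2-DMb2 from 34143307 to 34151553, H2-DMb1 from 34153072 to 34160223, H2-Ab1 from 34263209 to 34269418 and H2-Eb1 from 34305883 to 34316199 on the plus strand, and H2-Aa from 34282744 to 34287827 on the minus strand. Ctss lies on chromosome 3 from 95526786 to 95556403, Ciita on chromosome 16 from 10488178 to 10527564 and Cd74 on chromosome 18 from 60803848 to 60812646, all on the plus strand. All 9 are protein-coding in GENCODE M21, and the intervals span their exons and introns. No other listed gene overlapped any of the 9 intervals. The cluster thus held both the gene with the widest difference among the chains, H2-Aa, and the genes that overlapped, H2-DMa and H2-DMb1.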

How the data were processed

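Sorted round spermatids were lysed and amplified with Smart-seq2 and tagmented with a Nextera XT kit, per the labels' protocols, which keeps neither strand nor molecular identifiers, so intervals cover counting error only. Per the submitters' processing notes, HISAT2 2.1.0 was used with mm10, beside Trim Galore 0.6.6 and FastQC 0.11.8. Which tool and annotation gave the counts is not stated. The authors deposited log2 RPM values. With the lowest value of each library set to 0.9 reads, whole reads (within 0.01) were obtained for 99.7% to 100.0% of its remaining values. Counts of 2 outnumbered counts of 1 in each library, so both mates may have been counted. In that case all exact intervals given here are too narrow.

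Genotypes were compared with limma 3.58.1 (R 4.3.3) on the deposited log2 values, with a variance trend, two-sided, Benjamini-Hochberg adjusted over 15888 genes at 1 RPM or more in 2 of 4 libraries, threshold 0.05. The fit was run on simulated counts with an assumed spread, not that of these libraries. That run does not show how the fit performs on these data. Means of RPM set 0 reads to 0, and the floor was 3 reads. Of 137 symbols in the lists, 133 matched, 2 by an older symbol. All 9 class II genes are named, and from each list up to 4 genes whose groups did not overlap, by smallest p, defining markers at 0 reads and the 10 nearest profiles, with further genes and markers chosen after their values were seen. One gene that this rule names is not reported here. The 9 genes and the lists were chosen with earlier results of these data known. Exon lengths came from GENCODE M21 within the table's intervals, as the union over all transcripts of a gene, and promoters from RefSeq (GRCm38.p6). The H2-DMb1 stretch is not shown because an annotated UTR overlaps it. Python 3.11.15, pandas 2.3.3, SciPy 1.17.1 and matplotlib 3.10.9 were used. Alternatives were log2(RPM + 1), no filter, 5 RPM, median-ratio and quantile scaling, voom, leaving out each library and a replicate block.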

Additional observations from a re-analysis of the deposited data

How the results depend on the processing

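The median log2 difference of the class II genes stayed positive under every alternative, between 1.61 and 3.19 with 1 library left out, and at 1.82 on the log2(RPM + 1) scale over 8 genes and 2.01 with 5 RPM as the minimum over 6. The ratio of summed class II RPM was 4.99 with median-ratio and 4.93 with quantile scaling and 3.27 without Cd74, and ranged from 2.53 (without -/- library 1) to 7.99 (without -/- library 2). Of the single genes, H2-DMa changed sign in 3 of 11 alternatives and H2-DMb1 in 2 of 11, and the other 6 in the fit in none.

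The number of genes passing over the whole table was 0, but 1 with log2(RPM + 1) and 180 without a filter, where variances are also taken from genes with 0 reads, and 0 to 558 with 1 library left out. Pathway companions passing were 0, but 5 without a filter and 0 to 8 with 1 library left out. The replicate numbers of the titles were not shown to pair samples (correlation of the replicate differences -0.0761 over 15888 genes), and with a replicate block 66 genes and 4 companions passed. The cause of these changes was not tested. Depth limits Ciita and H2-DMb2 most, which had 9 and 12 reads in -/- library 2 and 0 and 2 reads in +/- library 1.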

Other observations

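Between H2-DMa and H2-Eb1 on chromosome 17 the table lists 9 other genes, of which 4 were tested. Tap1, a peptide transporter gene of class I presentation, lay below both +/- libraries, at 11.2 and 7.28 RPM in -/- and 11.9 and 12.1 RPM in +/-. Psmb8, an immunoproteasome subunit gene, was at 1.47 and 1.69 RPM in -/- and 0 and 0.354 RPM in +/-, and its neighbour Psmb9 overlapped, at 1.13 and 0.266 RPM in -/- and 0 and 1.06 RPM in +/-. Tap2 was at 2.03 and 0.444 RPM in -/- and 0.173 and 0.207 RPM in +/-. Psmb8 and Tap2 overlap Gm20496 on the opposite strand, and Psmb9 overlaps Tap1 likewise, and without strand the reads of such partners cannot be told apart.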
